A study of Mus musculus with 36 samples.

Results

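The nuclear genes of oxidative phosphorylation were followed across the 18 groups of the study: the genes whose symbols start with Nduf, Uqcr, Cox4 to Cox8 or Atp5, together with Sdha, Sdhb, Sdhc and Sdhd. They were chosen by symbol alone, from probe sets that carry a single gene, and come to 84 of the 12394 genes that could be read in this way, on 156 probe sets. By name 39 genes belong to complex I (74 probe sets, among them the 5 assembly factors Ndufaf1, Ndufaf3, Ndufaf4, Ndufaf5 and Ndufaf7), 4 to complex II (7 probe sets), 8 to complex III (15), 16 to complex IV (32) and 17 to complex V (28). A further 8 probe sets with such symbols are shared with other genes and were left out, and 9 symbols, among them Ndufb4, Ndufa11 and Ndufs6, occur only there. Of the 84 genes 39 were read by 1 probe set, and the others by up to 6.

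Oxidative phosphorylation takes electrons from NADH at complex I and from succinate at complex II, passes them through complex III and cytochrome c to oxygen at complex IV, and uses the proton gradient built on the way to drive the ATP synthase, complex V. Most subunits are encoded in the nucleus and imported into mitochondria, while a few core subunits of complexes I, III, IV and V come from the mitochondrial genome and are not among these genes. In macrophages and microglia, inflammatory activation is known to move energy supply from this pathway towards glycolysis, and type I interferons are known to alter mitochondrial metabolism.

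Total RNA from 24 samples of primary mouse microglia and 12 of BV-2 cells, an immortalised mouse microglial line, was measured on 1 expression array each, with 2 arrays in each of 18 groups. The microglia came from wild-type (WT) mice, from Usp18ko mice (KO) or from USP18_C61A mice (C61A), a mutant of the catalytic cysteine of this enzyme. The BV-2 cells were treated with control siRNA or with siRNA against Usp18. Within every genotype and siRNA, cells were untreated (0 h) or had received IFN-b at 500 U/ml, and treated cells were taken at 6 h and 24 h. Usp18 removes the ubiquitin-like protein ISG15 from its targets and, separately from that activity, dampens signalling at the type I interferon receptor. The labels name no sex, age or breeding scheme of the mice, and do not say whether arrays of 1 number share a culture or an animal, so p-values measure the spread between these arrays.

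The WT arrays occur in 2 sets in the order of deposition, one beside KO (set 1) and one beside C61A (set 2), and each mutant was compared with its own set. Between the sets at 0 h, 6 h and 24 h, 10, 39 and 12 of 81 members differed, against 27.2%, 30.9% and 32.7% of all genes tested. Leaving out 1 array gave 3 to 6 at 0 h for any of the 4 arrays. At 6 h it gave 7 without set 1 replicate 2, and 19 and 17 without set 2 replicate 1 or 2. At 24 h it gave 6 without set 1 replicate 2 and 4 without set 2 replicate 1. Usp18 lay at 3.77 to 6.42 on the KO arrays and at 10.71 to 12.56 on IFN-b arrays of WT set 1. Untreated Usp18 levels were 8.38 and 8.59 under control siRNA and 7.921 and 9.001 under Usp18 siRNA, and at 24 h they were 11.51 and 11.73 against 11.07 and 11.48. The siRNA arrays overlapped at 0 h and 6 h and not at 24 h. The untreated WT replicate 1 of set 2 had Usp18 at 12.98, against 9.31 on its replicate, and 12.85 against 8.17 as the median of 7 interferon response genes. The C61A 6 h replicate 2 had Usp18 at 10.71, against 13.04 on its replicate. The Usp18 siRNA 6 h replicate 2 had a median of the microglia markers of 10.14, against 5.80 to 9.43 on the other BV-2 arrays. These 3 arrays stand apart from their labels, and the counts that rest on them are given with and without them. The interferon gene median also differed between other untreated arrays. It was 9.311 and 6.976 in C61A and 8.17 on WT set 2 replicate 2, against 5.679 and 5.99 in WT set 1. Under Usp18 siRNA it was 6.255 and 9.001, against 4.435 and 5.3 under control siRNA. Leaving out the 3 arrays does not remove these differences. Their part in the IFN-b responses of set 2, C61A and siRNA cells was not tested. The microglia markers had medians of 10.43 to 12.26 on the microglia arrays, while 10 of 13 were lower in untreated BV-2 cells than in untreated WT microglia. Astrocyte markers had medians of 4.40 to 6.27 in set 1 and KO arrays and of 6.04 to 9.36 in set 2 and C61A arrays. Replicates of 1 group also differed, as at 7.04 and 9.03 in untreated WT set 2 and at 9.36 and 7.07 in C61A at 24 h. The part of this spread in the member levels was not tested.

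Promoter sequences are shown for the member with the largest decrease that passed in KO against WT at 24 h in complexes I, III and V and for Ndufb1, which moved the opposite way at 6 h. The corresponding members of complexes II and IV, Sdhc and Cox4i1, had no entry. Each is the 250 bases before the annotated start in RefSeq (build GRCm38.p6), 5′ to 3′ on the gene's strand, in capitals where 1 of 5 motifs matched on either strand. The motifs were GCGCATGC for NRF1, CCGGAAG for ETS factors such as GABPA, AAGATGG for YY1, GGGCGG for SP1 and GAAANNGAA for the interferon-stimulated response element. Ndufaf4 lies at chr4:24897833-24898082 on the plus strand, and Uqcr11 at chr10:80406822-80407071, Atp5g1 at chr11:96075632-96075881 and Ndufb1 at chr12:101975739-101975988 on the minus strand.
Ndufaf4: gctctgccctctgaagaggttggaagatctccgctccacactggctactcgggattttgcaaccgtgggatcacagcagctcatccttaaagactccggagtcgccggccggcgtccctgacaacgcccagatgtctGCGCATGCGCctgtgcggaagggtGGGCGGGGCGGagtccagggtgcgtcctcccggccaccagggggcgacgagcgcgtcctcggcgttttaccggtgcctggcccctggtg
Uqcr11: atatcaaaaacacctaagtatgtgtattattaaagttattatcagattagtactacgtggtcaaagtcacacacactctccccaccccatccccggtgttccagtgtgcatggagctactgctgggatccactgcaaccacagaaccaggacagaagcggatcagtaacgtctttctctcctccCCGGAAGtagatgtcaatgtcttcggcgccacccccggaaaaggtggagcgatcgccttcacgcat
Atp5g1: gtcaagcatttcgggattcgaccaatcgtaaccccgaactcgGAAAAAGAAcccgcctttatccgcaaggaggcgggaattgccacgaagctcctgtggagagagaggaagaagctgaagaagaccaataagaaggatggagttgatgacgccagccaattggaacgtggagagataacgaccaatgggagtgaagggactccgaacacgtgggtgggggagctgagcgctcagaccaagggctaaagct
Ndufb1: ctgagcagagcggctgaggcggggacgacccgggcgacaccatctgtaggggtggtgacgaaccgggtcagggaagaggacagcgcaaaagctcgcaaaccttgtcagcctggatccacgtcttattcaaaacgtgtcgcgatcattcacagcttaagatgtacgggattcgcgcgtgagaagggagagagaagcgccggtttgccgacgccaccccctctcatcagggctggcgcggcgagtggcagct
In the Ndufaf4 window the NRF1 motif matched once on each strand, 113 and 111 bases before the start and overlapping, and the SP1 motif 89 and 84 bases before it. The Uqcr11 window held the ETS motif 66 bases before the start, and the Atp5g1 window the interferon element 208 bases before it. The Ndufb1 window held none of the 5 motifs. Of the 84 members 70 were matched, with 75 windows. The NRF1 motif was in 10.7% of these windows, in 4.45% of the 8463 windows of the genes tested in microglia and in 2.26% of all 32851 windows. For the ETS motif the shares were 17.3%, 14.0% and 6.91%, for YY1 1.33%, 4.44% and 4.49%, for SP1 27 of 75 windows, 58.5% and 32.7%, and for the interferon element 6.67%, 6.19% and 7.13%. These are counts of letters, not of bound sites.

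Most members moved together across groups. Values are log2 intensities, and members without a probe set brighter than the array median on 2 or more arrays of a fit went untested. This left 81 of 84 members in microglia and in BV-2 cells alike. Over the 12 microglia groups, the mean level of a member correlated with the median of the other members at a median Pearson r of 0.845. This r was above 0.5 for 68 of 81 members and below 0 for 7. The points share arrays, normalization and any offset between the 2 runs, and other genes were not read in this way. The value is therefore a description, and was not shown to be particular to the members. Uqcr11 (r = 0.988), Atp5e (r = 0.979) and Atp5c1 (r = 0.978) followed the other members most closely, and Cox8c (r = -0.757), Cox6a2 (r = -0.591), Ndufs4 (r = -0.443) and Ndufb1 (r = -0.293) ran against them. Cox6a2 and Cox8c are isoforms better known from muscle and testis, and Ndufs4 is an accessory subunit of the NADH-oxidising arm of complex I.

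The median level of the members on an array was 10.58 and 10.56 in untreated WT microglia of set 1, and 10.53 and 10.57 in set 2. In KO microglia it was 10.07 and 10.46 untreated, 9.80 and 10.30 at 6 h and 9.79 and 9.93 at 24 h. Both KO arrays at 24 h lay below both WT arrays of the same set and time, at 10.60 and 10.47. In C61A microglia it was 10.63 and 10.64 untreated and 10.25 and 10.36 at 24 h, beside 10.19 and 10.38 in WT set 2 at 24 h, so that these groups overlapped. The 6 control siRNA arrays lay between 10.77 and 10.95. Under Usp18 siRNA the 24 h arrays were at 10.676 and 10.431, below all other BV-2 arrays. The first of them lay barely below the Usp18 siRNA 6 h replicate 2, which was at 10.684 and stood apart from its label. The lowest of the WT arrays was 6 h replicate 2 of set 1 at 9.81, whose replicate was at 10.27.

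**Figure D1:**
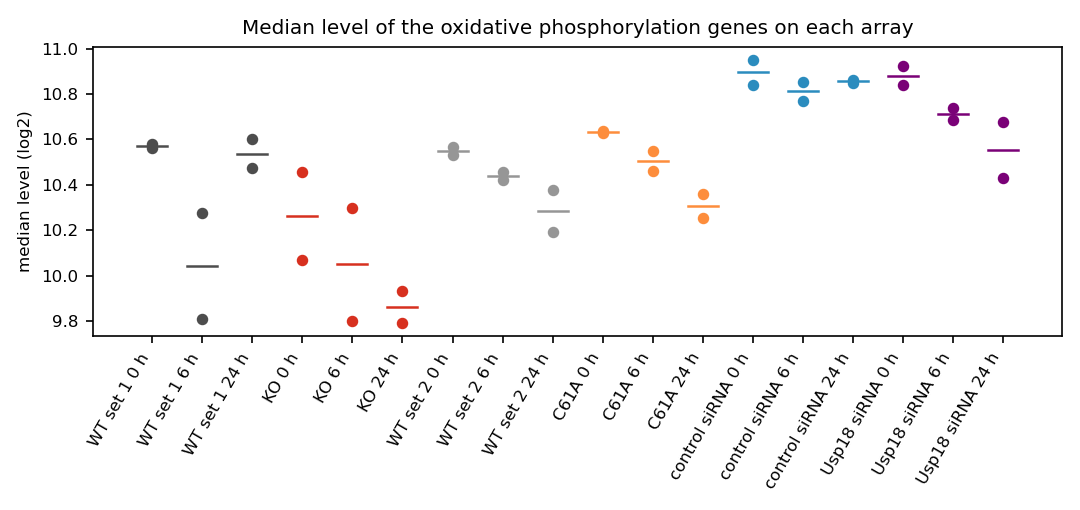
Median log2 level of the member genes on each of the 36 arrays (points), with the mean of each group of 2 (lines), for the 18 groups on the horizontal axis. KO arrays at 24 h (9.79 and 9.93) lie below the WT set 1 arrays at 24 h (10.60 and 10.47), and the replicates of WT set 1 at 6 h are spread between 9.81 and 10.27.

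The comparison of KO with WT microglia after 24 h of IFN-b asked how loss of Usp18 changes the treated cell. At this time 39 of the 81 members were lower in KO and 0 were higher, where 17.7% of all genes tested were lower and 11.3% higher (limma, adjusted p under 0.05). The median change over the 81 members was -0.572, against -0.072 over all genes, and 75 of 81 lay below 0, as did 54.8% of all genes. Lower were 21 of 39 in complex I, 3 of 4 in complex II, 5 of 8 in complex III, 2 of 13 in complex IV and 8 of 17 in complex V. The medians by complex were -0.595, -0.602, -0.610, -0.527 and -0.577. Whether the complexes differed was not tested. The shares of all genes, here and elsewhere, were not matched to the members for level. On these arrays the members had medians of 9.79 to 10.60, where the array medians were 5.62 to 5.74.

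In complex V the 3 genes of subunit c, which forms the rotor ring in the membrane, all fell. Atp5g1 lay at 7.66 and 8.08 in KO and at 9.58 and 9.19 in WT, a change of -1.52 ± 0.361 (SE, adjusted p = 0.00708). The KO arrays were the lowest 24 h arrays of the study for this gene. Atp5g2 lay at 9.21 and 9.85 in KO and at 10.81 and 10.91 in WT, a change of -1.33 ± 0.309 (adjusted p = 0.00625). For Atp5g3 the change was -0.59 ± 0.138 (adjusted p = 0.0062). Of the catalytic head, Atp5a1 (alpha, -0.64) fell, while Atp5b (beta) had a change of -0.41 that did not pass. Of the central stalk, Atp5c1 (gamma, -0.42), Atp5d (delta, -0.74) and Atp5e (epsilon, -0.91) fell. In the peripheral stalk Atp5h (subunit d) fell by 0.58, and Atp5o, Atp5j and Atp5pb did not pass, with changes of -0.41, -0.34 and 0.07.

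In complex I the leading gene was Ndufaf4, an assembly factor that helps to build the arm reaching into the matrix. It lay at 6.27 and 6.18 in KO and at 7.66 and 7.19 in WT, a change of -1.20 ± 0.269 (adjusted p = 0.00499). The accessory subunits Ndufb2 and Ndufc1 of the membrane arm followed. Ndufc1 lay at 8.77 and 8.76 in KO and at 10.05 and 9.70 in WT, a change of -1.11 ± 0.316 (adjusted p = 0.0179). Among the core subunits that carry flavin or iron-sulfur clusters, Ndufv1 (-0.54), Ndufv2 (-0.50), Ndufs7 (-0.63) and Ndufs8 (-0.71) fell. Ndufs1, the largest of them, had a change of -0.37 that did not pass, and it was already lower before treatment, as given below. Ndufa4, named for complex I and now counted with complex IV, fell by 0.77. Ndufs4 and Ndufb1 lay above 0, at 0.42 and 0.35, and did not pass.

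Complex II, which also works in the citric acid cycle, had lower levels of Sdhb, its iron-sulfur subunit, and of both membrane anchors, Sdhc and Sdhd. Sdhc lay at 8.66 and 8.93 in KO and at 9.74 and 9.57 in WT, a change of -0.86 ± 0.204 (adjusted p = 0.00704). In complex III the Rieske iron-sulfur protein Uqcrfs1 (-0.58), the core protein Uqcrc1 (-0.64) and the small subunits Uqcrh (-0.72), Uqcr10 (-0.91) and Uqcr11 fell. Uqcr11 lay at 8.34 and 8.81 in KO and at 9.82 and 9.73 in WT, a change of -1.20 ± 0.391 (adjusted p = 0.0331). The probe sets of Uqcr10 disagreed, with changes from -0.91 to 0.07. In complex IV the subunits Cox4i1 and Cox5a, which bind each other early in assembly, fell. Cox4i1 lay at 11.47 and 11.74 in KO and at 12.20 and 12.16 in WT, a change of -0.57 ± 0.176 (adjusted p = 0.0253), and Cox5a changed by -0.53 ± 0.155 (adjusted p = 0.0205). Of the 11 other tested genes of complex IV 0 passed in limma, with changes of -0.71 (Cox7c) to 0.33 (Cox8c), and Cox6b1 and Cox7a2l had an unadjusted p under 0.05.

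**Figure D2:**
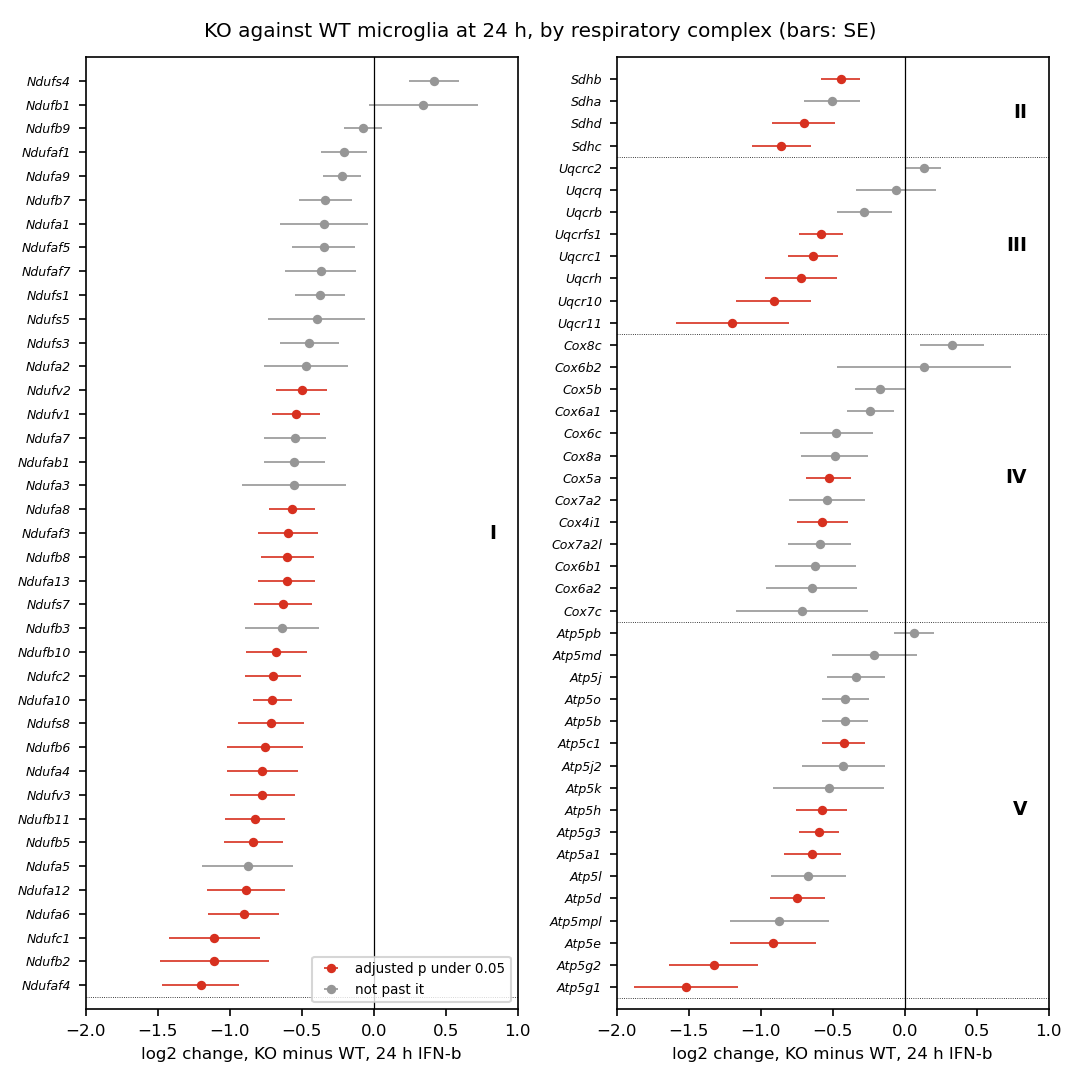
Log2 change of each tested member in KO against WT set 1 microglia after 24 h of IFN-b (points, with standard errors as bars), ordered within complexes I to V. The 39 members with an adjusted p under 0.05 are in red and all lie below 0, from -1.52 (Atp5g1) to -0.42 (Atp5c1).

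These calls rest on 2 arrays a group, and the counts of the other fits below are given without the share of all genes. Without KO 24 h replicate 1 or 2 the number of members called was 4 and 15, and without WT set 1 24 h replicate 1 or 2 it was 3 and 15, while the median change stayed between -0.519 and -0.598. Atp5g2 and Ndufaf4 passed in 3 of these 4 fits and Atp5g1 in 2. Atp5g2 did not pass without KO 24 h replicate 1, Ndufaf4 did not without WT replicate 1, and Atp5g1 did not without the one or the other of these arrays. Uqcr11, Ndufb2 and Atp5e passed in 0 of the 4. With cyclic loess normalization, added after seeing the data, 21 members passed and the median was -0.371, beside 0.004 for all genes. With all 4 WT arrays of 24 h as the control 14 passed, with a median of -0.502.

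The level of other RNAs differed on the same arrays. The 3' probe set of Gapdh, a glycolytic enzyme used as a labelling control, lay at 11.05 and 11.64 in KO at 24 h and at 11.86 and 12.08 in WT. Its 3' value minus the 5' value was -0.46 and -0.48 in KO, and -0.58 and -0.34 in WT. Cell division genes had medians of 5.37 and 5.42 on the KO arrays and 6.46 and 6.57 on the WT arrays, with 5 of 12 lower, beside 17.7% of all genes. Of the microglia markers 3 of 13 (Cx3cr1, Trem2 and Fcgr3) were lower, with list medians of 12.18 and 12.04 in KO and 11.88 and 12.18 in WT. The astrocyte markers had 0 of 8 called and medians of 4.40 and 5.33 against 4.75 and 4.72. Of the fibroblast and endothelial markers 2 of 6 tested, Cdh5 and Kdr, were higher, beside 11.3% of all genes. Both also rose in WT microglia after 6 h of IFN-b (0.85 and 1.91, adjusted p = 0.0135 and 0.00218 in limma). Kdr was higher by 3.98 in untreated KO cells too. The part of these differences in the lower member levels was not tested, and less RNA per cell cannot be told apart from a change in the cells present.

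Genes around the respiratory chain were read in the same comparison, in which 17.7% of all genes fell and 11.3% rose. Of the genes of pyruvate oxidation and the citric acid cycle 9 of 18 fell and 0 rose, among them Suclg2 (-1.35 ± 0.318, adjusted p = 0.00676), Dlat (-1.28 ± 0.324, adjusted p = 0.0097) and Idh3a (-1.27 ± 0.365, adjusted p = 0.0187). The ATP/ADP carriers Slc25a4 (-1.64) and Slc25a5 (-1.04) fell, 2 of 3 tested in their list. Of 8 electron carriers and dehydrogenases that feed the chain 4 fell, led by Dhodh (-1.54) and Etfb (-1.30), and with Cyc1, cytochrome c1 of complex III (-0.44). Of 32 assembly factors outside the symbol rule 14 fell, led by the copper chaperone Sco2 (-1.87) and by Cox16 (-1.48), and 2 rose, Cox18 (1.08) and Cox15 (0.89). Among 16 regulators of mitochondrial gene expression 5 fell, including the mitochondrial transcription factor Tfb2m (-1.23) and the coactivator Pprc1 (-1.07), and 3 rose, including Ssbp1 (1.58) and Gabpb1 (0.67). In glycolysis 3 of 18 rose, a share near that of all genes, and 1 fell. Pfkp (2.65 ± 0.330, adjusted p = 0.000198), Pfkfb3 (2.15 ± 0.394, adjusted p = 0.00151) and Hk1 (1.29 ± 0.229, adjusted p = 0.00125) rose, and Hk2 changed by -1.20 ± 0.188 (adjusted p = 0.000633).

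In untreated cells 4 members were lower in KO than in WT and 0 higher, beside 8.78% of all genes lower. The median of the 81 was -0.266, against -0.096 over all genes, and 70 lay below 0, as did 57.0% of all genes. Ndufb11, an accessory subunit of the complex I membrane arm, lay at 10.02 and 10.55 in KO and at 11.29 and 11.22 in WT, a change of -0.97 ± 0.208 (adjusted p = 0.00781). Ndufs1, which holds iron-sulfur clusters at the entry of the electron path, lay at 8.6 and 9.11 in KO and at 9.53 and 9.41 in WT, a change of -0.62 ± 0.172 (adjusted p = 0.0265). The assembly factor Ndufaf1 (-0.50 ± 0.160, adjusted p = 0.0456) and Atp5g3 (-0.46 ± 0.138, adjusted p = 0.0352) followed. Their KO and WT arrays did not overlap. Without KO replicate 1, whose member median was the lower of the pair, 0 members passed, as without WT replicate 2, and without KO replicate 2 or WT replicate 1 it was 7 and 1. Cell division genes were lower in 5 of 12 here too, with medians of 6.05 and 6.71 in KO and 7.69 and 7.39 in WT. Of 7 interferon response genes 6 were higher in untreated KO cells, with medians of 12.44 and 12.19 against 5.68 and 5.99. The part of these differences in the member levels was not tested.

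After 6 h of IFN-b 2 members were lower in KO than in WT, beside 5.44% of all genes, and the median of the members was 0.039. They were Ndufaf4, at 5.88 and 5.85 in KO and 7.15 and 6.59 in WT (-1.01 ± 0.269, adjusted p = 0.0356), and Atp5b, the catalytic beta subunit (-0.57 ± 0.159, adjusted p = 0.0404). This comparison turned on single arrays of both WT and KO. Without WT set 1 6 h replicate 1 the count was 12 members, all higher in KO, and without replicate 2 it was 0. Without KO 6 h replicate 1 or 2 it was 0 and 5.

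In KO cells themselves the IFN-b response passed for few members. At 6 h 1 member fell, beside 5.57% of all genes: Ndufaf4, from 7.08 and 7.18 to 5.88 and 5.85, a change of -1.27 ± 0.269 (adjusted p = 0.0133). At 24 h 0 of 81 passed in limma, beside 3.97% of all genes, and 26 had an unadjusted p under 0.05, as did 22.2% of all genes. The median was -0.346, against -0.04 over all genes, and 77 members and 53.7% of all genes lay below 0. Same-numbered arrays deviated together over time, and with the culture, as given by the replicate number, as a block 8 members were called at 6 h and 16 at 24 h. Without KO 6 h replicate 1 or KO 0 h replicate 2 the 6 h count was 0, and without KO 6 h replicate 2 it was 8. The 24 h count was 3 without KO 0 h replicate 1. For the response of KO minus that of WT, 0 members passed at 6 h and at 24 h, beside 1.14% and 0.716% of all genes, with 5 and 6 at an unadjusted p under 0.05, as for 13.5% and 13.3% of all genes. The 6 h count was 8, all higher, without WT set 1 6 h replicate 1, and the 24 h count was 1 with the culture as a block. The smaller member levels of KO at 24 h were therefore not shown to be a different response to IFN-b, with a median difference of responses of -0.274. For Atp5g1 that difference was -0.88 ± 0.511 (adjusted p = 0.484).

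In WT microglia 10 members fell after 6 h of IFN-b and 1 rose, averaged over both sets, beside 7.81% and 7.59% of all genes. The median was -0.331, against -0.119 over all genes, and 74 of 81 lay below 0, as did 62.9% of all genes. Complex I gave 8 of those that fell (Ndufaf7, Ndufb11, Ndufv3, Ndufb8, Ndufb10, Ndufs7, Ndufa13 and Ndufa8), and complex V the other 2 (Atp5h and Atp5g3). Ndufaf7, a methyltransferase needed for complex I assembly, lay at 6.38, 6.52, 6.70 and 6.43 untreated and at 5.60, 5.36, 6.26 and 6.06 at 6 h. Its change was -0.69 ± 0.175 (adjusted p = 0.0189), and the groups did not overlap. Ndufb8, an accessory subunit of the membrane arm, changed by -0.51 ± 0.131 (adjusted p = 0.0198).

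The response was also read within each set. Counts of fits that leave out an array, use a block or change the normalization are given without the share of all genes. A moved count was therefore not shown to be particular to the members. Within set 1 29 members fell and 1 rose, beside 14.1% and 10.8% of all genes, with a median of -0.585. Without 6 h replicate 1 or 2 of set 1 the count was 47 and 3, and without its untreated replicate 1 or 2 it was 9 and 8. Within set 2 0 of 81 passed in limma, beside 0.0126% of all genes, 0 had an unadjusted p under 0.05, beside 2.44% of all genes, and the median was -0.073. Without the untreated array that stood apart it was also 0. The difference between the responses of the sets passed for 0 members, beside 0.791% of all genes, with 22 at an unadjusted p under 0.05, as for 16.6% of all genes, so a difference between the sets was not shown. It passed for 19 members without 6 h replicate 1 of set 1 and for 2 without untreated replicate 2 of set 2. In the average of both sets 41 members were called without 6 h replicate 1 and 1 without 6 h replicate 2, which had the lowest member median of all WT arrays. The count was also 1 to 2 without either untreated array of set 1, without untreated replicate 2 of set 2 or without its 6 h replicate 1, and 5 without its 6 h replicate 2. With the culture as a block 27 were called. With each array centred on its median 3 were, and with quantile normalization 17. Without the untreated array of set 2 that stood apart from its label the count was 11, and Ndufa13 and Ndufa8 did not pass.

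The gene that rose, Ndufb1, codes for a small accessory subunit of complex I and was read by 1 probe set. In set 1 it went from 6.18 and 6.57 untreated to 8.67 and 8.36 at 6 h and 6.93 and 6.77 at 24 h. In set 2 it lay at 8.64 and 7.26 untreated and at 8.43 and 8.10 at 6 h, and these arrays overlapped. The value of 8.64 is from the untreated array that stood apart from its label, and without it the untreated level of 7.26 lay below both 6 h arrays. The change within set 2 was 0.31 with that array and 1.00 without it (adjusted p = 0.997 and 0.324). The mean change over both sets at 6 h was 1.22 ± 0.269 (adjusted p = 0.00966), and 1.57 ± 0.230 (adjusted p = 0.000451) without that array. In KO cells it lay at 7.51 and 7.36 untreated and at 8.20 and 8.90 at 6 h, and in C61A cells at 7.33 and 7.46 untreated and at 8.39 and 7.55 at 6 h. The 7.55 is from the C61A array that stood apart, and the C61A change of 0.58 was 1.00 without it (adjusted p = 0.918 and 0.367).

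**Figure D3:**
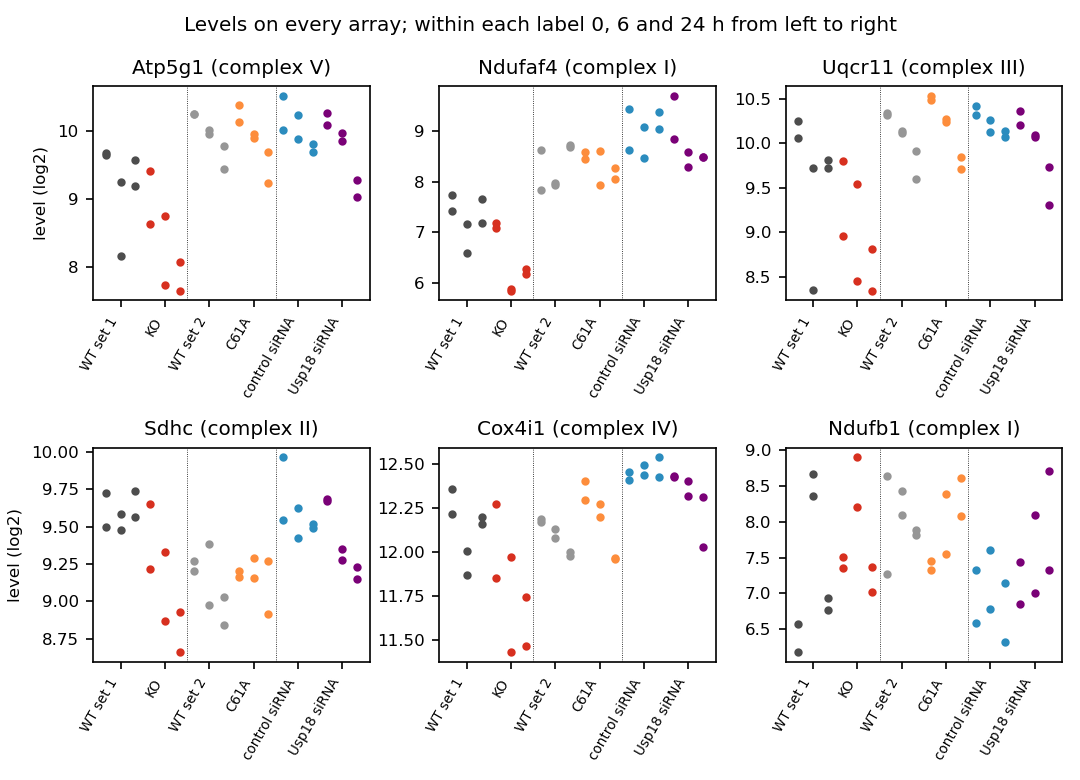
Log2 level of 6 members on every array, with 0 h, 6 h and 24 h from left to right within each genotype or siRNA, and dotted lines between the 3 runs of the deposition order. The first 5 panels show the member with the largest decrease that passed in KO against WT at 24 h in its complex, and Ndufb1 is higher on the WT set 1 arrays at 6 h (8.67 and 8.36) than untreated (6.18 and 6.57).

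After 24 h of IFN-b 1 member had fallen in WT microglia, beside 0.565% of all genes. Ndufb11 lay at 11.29, 11.22, 10.82 and 10.94 untreated and at 10.72, 10.59, 10.20 and 10.34 at 24 h, with no overlap, a change of -0.61 ± 0.147 (adjusted p = 0.0425). With the culture as a block 8 members were called. Leaving out 1 array took the count to 0 in 7 of 8 cases, and to 2 without the untreated WT replicate 1 of set 2. Within set 1 and within set 2 0 passed in limma, beside 2.2% and 0.0754% of all genes, with 5 and 9 at an unadjusted p under 0.05 (14.9% and 9.06% of all genes) and medians of -0.101 and -0.214. The difference between the sets passed for 0 members, beside 0.0% of all genes, with 3 at an unadjusted p under 0.05 (6.29% of all genes).

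In C61A microglia, in which the protease activity of Usp18 is lost while the protein remains, 4 members fell after 24 h of IFN-b, beside 3.63% of all genes. The median of the members was -0.311, against -0.119, and 75 of 81 lay below 0, as did 59.9% of all genes. Cox7a2l, a factor that joins complexes III and IV into larger assemblies, lay at 10.56 and 10.35 untreated and at 9.36 and 9.78 at 24 h, a change of -0.89 ± 0.221 (adjusted p = 0.0251). Its 3 kept probe sets gave -0.90 to -0.88. Ndufb10 (-0.78 ± 0.213, adjusted p = 0.0344), Ndufb8 (-0.66 ± 0.185, adjusted p = 0.0386) and Ndufs1 (-0.61 ± 0.172, adjusted p = 0.0397), all of complex I, followed. Leaving out any 1 of the 4 arrays left 0 calls, and with the culture as a block there were 15. At 6 h 0 passed in limma, beside 0.0503% of all genes, with 0 at an unadjusted p under 0.05 (5.85% of all genes). The median was -0.104 with the C61A 6 h array that stood apart and -0.113 without it, and without it 0 passed too.

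C61A microglia were not shown to differ from WT in any member at 0 h, 6 h or 24 h, where 0.0126%, 0.0126% and 0.0251% of all genes differed in limma. No member had an unadjusted p under 0.05 at any of these times, where 4.91%, 3.17% and 7.26% of all genes did, and the medians were 0.077, 0.071 and 0.013. For Atp5g1 at 24 h the C61A arrays lay at 9.24 and 9.69 and the WT arrays at 9.44 and 9.78, a change of -0.14 ± 0.361 (adjusted p = 0.949). The responses of C61A and WT differed in 0 members at both times, beside 0.0% of all genes each, with 0 and 1 at an unadjusted p under 0.05 (0.327% and 6.24% of all genes). Without the arrays that stood apart all of these counts were again 0.

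The effect of KO and the effect of C61A, each against its own WT set, were compared directly. At 24 h the difference passed for 1 member, beside 1.12% of all genes lower. This was Ndufa10, an accessory subunit of complex I, with -0.79 and an adjusted p of 0.0406. At that time 30 members had an unadjusted p under 0.05, as did 21.1% of all genes. Below 0 lay 77 of 81 members and 54.4% of all genes, with median differences of -0.547 and -0.06. At 0 h 1 member passed, Ndufb11 (-1.04, adjusted p = 0.0348), beside 4.65% of all genes, and at 6 h 0 passed, beside 0.817%, with 6 at an unadjusted p under 0.05 (17.7% of all genes). At 24 h the call was lost without any 1 of the 8 arrays. At 0 h it was lost without KO replicate 1, without either WT array of set 1, without WT replicate 1 of set 2 and without either C61A array, and the count was 5 without KO replicate 2 and 3 without WT replicate 2 of set 2. At 6 h it was 1 without KO replicate 2, C61A replicate 1 or WT set 1 replicate 1.

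**Figure D4:**
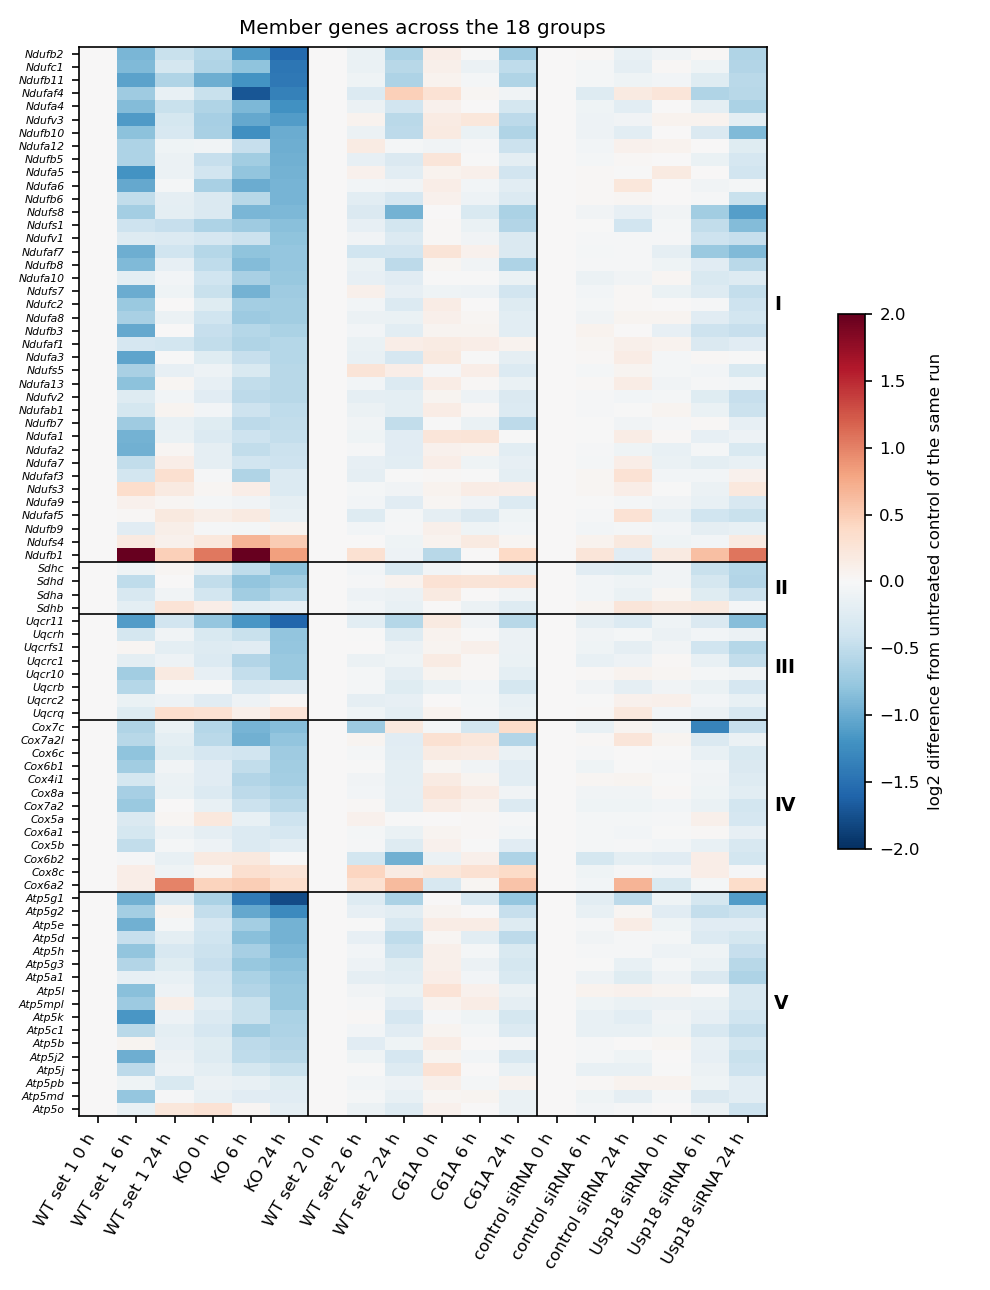
Mean log2 level of each of the 81 members tested in microglia in each of the 18 groups, minus the untreated WT or control siRNA group of the same run, with blue for lower and red for higher, limited to -2 and 2. Rows are ordered by the KO 24 h value within complexes I to V, each member read by its brightest probe set over all 36 arrays. Members lower by over 0.5 number 46 in WT set 1 at 6 h, 44 and 56 in KO at 6 h and 24 h, and at most 17 in the other columns, while 41 to 76 lie below 0 in the columns of treated cells and 70 in untreated KO. The 2 arrays of WT set 1 at 6 h had unlike member medians, 10.27 and 9.81. The baseline of the WT set 2 and C61A columns includes an array that stood apart from its label. No column was drawn without such arrays, and the same counts were not made over all genes.

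In BV-2 cells given control siRNA, IFN-b changed 0 members at 6 h and 0 at 24 h in limma, beside 0.991% and 0.503% of all genes. At an unadjusted p under 0.05 there were 0 and 3 (5.96% and 9.1% of all genes), and the medians were -0.038 and -0.024. Under Usp18 siRNA 1 member passed at 6 h and 11 at 24 h, all lower, beside 0.949% and 9.24% of all genes. The 6 h member was Cox7c, which went from 6.05 and 6.29 to 4.86 and 4.96 (-1.26 ± 0.176, adjusted p = 0.0168). The probe set that read it was dim, above the array median on 12 of 36 arrays, and without the array of this group that stood apart it did not pass. Nor did it pass when an untreated array was left out. With the replicate number or the culture as a block 2 and 3 members were called at 6 h.

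At 24 h complex I gave 7 of the 11 (Ndufs8, Ndufb10, Ndufs1, Ndufa4, Ndufc1, Ndufa5 and Ndufb2), complex III 1 (Uqcr11) and complex V 3 (Atp5g1, Atp5a1 and Atp5j2). The median of the 81 was -0.311, against -0.111 over all genes. Atp5g1 lay at 10.09 and 10.27 untreated and at 9.28 and 9.03 at 24 h, a change of -1.02 ± 0.207 (adjusted p = 0.0162). Ndufs1 lay at 10.40 and 10.52 untreated and at 9.62 and 9.64 at 24 h, a change of -0.83 ± 0.140 (adjusted p = 0.00938). Ndufs8, an iron-sulfur subunit near the end of the electron path in complex I, lay at 12.11 and 11.86 untreated and at 11.35 and 10.52 at 24 h (-1.05 ± 0.289, adjusted p = 0.041), on the brightest of 6 probe sets, whose changes ran from -1.05 to -0.28. The arrays of none of these 3 overlapped between times. Without either untreated array or without 24 h replicate 2 the count was 0, and without 24 h replicate 1 it was 28. With the replicate number or the culture as a block it was 26 and 28.

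Of the 11 members that fell here 8 were also among the 39 that were lower in KO at 24 h. This is 72.7% of the first list, where 48.1% of all tested members were lower in KO. It is 20.5% of the second list, where 13.6% of all tested members fell under Usp18 siRNA. These were Atp5a1, Atp5g1, Ndufa4, Ndufb10, Ndufb2, Ndufc1, Ndufs8 and Uqcr11. The comparisons share no arrays but mostly use the same probe sets. Of the 10 members that fell in WT at 6 h, 9 (90.0%) were also among the 39, again with no shared arrays but within 1 fit. With the 11 members under Usp18 siRNA that WT list shared 1, Ndufb10. Of the 4 members that fell in C61A at 24 h, 2 were among the 39 and 2 among the 11. These overlaps were not tested, and they were not counted over all genes.

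Against control siRNA at 24 h, 1 member was lower under Usp18 siRNA, beside 2.28% of all genes. An unadjusted p under 0.05 was seen for 34 members and 29.2% of all genes, and 78 of 81 members and 56.9% of all genes lay below 0. The median was -0.351, against -0.083 over all genes. Ndufb6, an accessory subunit of the complex I membrane arm, lay at 9.86 and 9.68 under Usp18 siRNA and at 10.46 and 10.64 under control siRNA, a change of -0.78 ± 0.163 (adjusted p = 0.038). Its other probe set gave -0.48. Ndufb10 (-0.67), Ndufs1 (-0.48) and Uqcr11 (-0.59) did not pass. With the replicate number as a block, which the siRNA groups share, 13 were called. Without Usp18 siRNA replicate 1 it was 22, and without its replicate 2 or either control array it was 0. At 0 h and 6 h 0 passed in limma, beside 0.0% of all genes each, with 0 and 3 at an unadjusted p under 0.05 (2.46% and 14.1% of all genes). Without the array that stood apart the 6 h count was 0 as well. Without Usp18 siRNA 6 h replicate 1 the 6 h count was 1. The responses under the siRNAs differed in 0 members at 6 h and at 24 h, beside 0.0% and 0.0279% of all genes, with 2 and 6 at an unadjusted p under 0.05 (3.41% and 9.45% of all genes).

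Other genes moved with the members on the Usp18 siRNA arrays at 24 h. Against untreated cells 11 of 12 cell division genes were lower, beside 9.24% of all genes, with medians of 8.69 and 8.19 at 24 h and 9.71 and 9.68 untreated. Of the citric acid cycle genes 4 of 18 were lower (Fh1, Idh3a, Pdha1 and Idh3g), and of the electron carriers 4 of 8 (Aifm1, Dhodh, Gpd2 and Cyc1). The microglia markers had 0 of 11 called and medians of 7.70 and 9.43 at 24 h against 6.31 and 8.02 untreated. The 3' probe set of Gapdh lay at 12.68 and 12.54 at 24 h and at 12.77 and 12.61 untreated. The part of these differences in the member levels was not tested.

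Untreated BV-2 cells with control siRNA had higher levels than untreated WT microglia in 32 of 82 members and lower levels in 4, beside 29.7% and 28.9% of all genes. The median was 0.297, against -0.018 over all genes. Higher were 18 of 39 in complex I, 2 of 4 in complex II, 2 of 8 in complex III, 4 of 14 in complex IV and 6 of 17 in complex V. Of the assembly factors 4 of 5 were higher. Ndufaf7 lay at 9.14 and 8.69 in BV-2 cells and at 6.38, 6.52, 6.70 and 6.43 in microglia, a change of 2.40 ± 0.303 (adjusted p = 1.42e-06). Ndufaf1 (1.22 ± 0.151, adjusted p = 1.08e-06) and Ndufaf4 (1.13 ± 0.273, adjusted p = 0.00145) were also higher. Of the electron path, Ndufs8 (1.63), Ndufv1 (1.42), Ndufs1 (1.10) and Uqcrfs1 (1.25) were higher. Uqcrfs1 lay at 11.09 and 10.93 in BV-2 cells and at 9.71 to 9.81 in microglia, with an adjusted p of 1.49e-07. The 4 lower members were Ndufb5 (-0.42), Uqcrc1 (-0.41), Ndufb7 (-0.39) and Sdhb (-0.37). The probe sets of Atp5a1, Ndufab1 and Ndufs4 disagreed in sign here. Without the untreated WT array of set 2 that stood apart from its label 30 members were called in place of 36, and Ndufb5 did not pass. The citric acid cycle genes were higher in 15 of 18 and the cell division genes in 11 of 12. Cell type and run of deposition cannot be told apart in this comparison.

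The widest spread of group means in complex I was that of Ndufaf7 (3.44), in complex II of Sdha (1.34), in complex III of Uqcrfs1 (2.00), in complex IV of Cox7a1 (2.49) and in complex V of Atp5g1 (2.40), on the log2 scale. Each ran from a microglia group to a BV-2 group, between which cell type and run cannot be told apart. For Atp5g1 the microglia groups alone ran from 7.87 (KO at 24 h) to 10.26 (untreated C61A). Isoforms known from other tissues were dim. Cox4i2 and Cox8b lay above the array median on 0 of 36 arrays, Cox6b2 on 3, Cox7a1 on 4 and Cox6a2 on 15, while their common partners Cox4i1, Cox8a, Cox6b1, Cox7a2 and Cox6a1 lay above it on all 36. Cox8c lay above it on 35. Cox6a2 had group means from 4.77 in untreated C61A cells to 6.56 in WT set 1 at 24 h, where the arrays were at 6.40 and 6.72, against 5.57 and 5.57 untreated.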

How the data were processed

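The 36 samples were hybridised to Affymetrix mouse arrays, 1 each. The deposited values run from 1.664 to 14.031 and were read as log2, although no source states the base. The submitters' processing notes name affy. How probes were summarised and arrays normalized is not given in the sources used here. Nothing further was done to the values, and array medians ran from 5.594 to 5.827. The number of arrays limits the precision. Only probe sets that name a single gene were used. Probe sets that exceeded the array median on fewer than 2 arrays of a fit were dropped, and of the rest the one with the highest mean stood for its gene.

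Group means were fitted with limma 3.58.1 in R 4.3.3 (24 microglia arrays, 12 BV-2 arrays, or all 36 for the cell line against microglia), with Benjamini-Hochberg adjustment over all genes tested and a threshold of 0.05. Residual degrees of freedom were 12, 6 and 18, so cultures sampled repeatedly count as independent. WT responses are means over both sets. The code was tested on simulated data. Figures were drawn with matplotlib 3.10.9.

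Deviations of the replicates from their group means correlated between times at 0.434 to 0.672 in WT set 1, 0.296 to 0.520 in set 2, 0.685 to 0.811 in KO, 0.538 to 0.655 in C61A, 0.412 to 0.526 under Usp18 siRNA and 0.310 to 0.759 under control siRNA. Numbers were therefore taken to pair arrays over time, and between the siRNAs (0.322 to 0.506), and fits with a replicate block are given where they moved a count. Between KO and WT (-0.112 to -0.086) and between C61A and WT (-0.460 to -0.044) they do not pair.

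The members, the other gene lists and the naming rule were chosen with earlier results of these data known. The rule names up to 8 called members with the largest change in each direction and comparison whose arrays do not overlap, otherwise the 4 with the smallest p, the member with the widest range in each complex, tissue isoforms, and up to 3 called genes of each other list. Further members are named by their role in a complex, chosen after their values were seen. Alternatives changed the filter, scaling, probe set rule, set term, blocks, arrays included and threshold. Counts under these alternatives are given without the share of all genes. A moved count was therefore not shown to be particular to the members.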

Additional observations from a re-analysis of the deposited data

Results flagged for a closer look

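In untreated cells, the KO effect on Ndufb11 and the C61A effect on it differed by -1.039 (log2, KO minus C61A, adjusted p = 0.0348 in limma). At 24 h of IFN-b the effects on Ndufa10 differed by -0.787 (adjusted p = 0.0406). Ndufa10 lay at 9.56 and 9.60 in KO and at 10.37 and 10.20 in its WT set, and at 10.18 and 10.30 in C61A and 10.12 and 10.20 in its WT set.

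Of 66 sets of 4 WT arrays of 1 time looked at for a single distant array (the member median and 21 named members at 3 times), 1 had one, where chance gives about 1 in 20. Ndufaf1 on the 6 h replicate 2 of set 1 was at 7.574, and the other 3 arrays of this time were at 7.488 to 7.500.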

How the results depend on the processing

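Of 120 named changes 46 passed as reported, and of these 0 reversed under any alternative run. For called members the naming rule asks for arrays that do not overlap. Leaving out 1 array cannot reverse such a change on the same probe set, so for those fits the 0 was largely fixed beforehand. Over 2024 values of named changes under alternatives, 1725 kept direction and side of the threshold, 247 lost the call, 43 gained it and 9 reversed. The reversals, none of a called change, were in C61A against WT for Ndufb1 at 0 h (0.226 without the set term, 0.127 without the 3 arrays that stand apart or without WT set 2 0 h replicate 1, with a lowest value of -1.253 without replicate 2), Cox7a2l at 0 h (-0.155), Ndufaf4 (0.097) and Ndufa12 (0.007) at 24 h without the set term, and Ndufs8 at 24 h (-0.011 with an additive set term, -0.188 without one), and for Atp5g1 under control siRNA at 6 h (0.042 without its 0 h replicate 2 and -0.455 without replicate 1). The cause was not tested, and 2 arrays a group limit every count.

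Counts of members called moved by over 1.5 times as follows. The WT response at 6 h (11 as reported) gave 3 with centred arrays, 17 with quantile and 7 with cyclic loess normalization, 2 with an additive set term, 0 without it, 1 with only the groups compared and 1 at 2-fold. At 24 h (1) it gave 0 without the filter, with mean probe sets, with an additive or no set term and at 2-fold, and 2 without the 3 arrays or with only its groups. The KO response gave at 6 h (1) 0 without the set term or with only its groups and 2 without the 3 arrays or with loess, and at 24 h (0) 1 with mean or every probe set and 1 without the 3 arrays. The C61A response at 24 h (4) gave 2 without the filter or with an additive set term and 0 without one, with only its groups and at 2-fold. KO against WT gave at 0 h (4) 2 when centred or with an additive term, 7 with quantile normalization and 0 without the term, with only its groups and at 2-fold. At 6 h (2) it gave 1 without the filter, at 2-fold or with loess, 4 with mean probe sets or an additive term and 0 with only its groups. At 24 h (39) it gave 22 with an additive term, 14 without one, 21 with loess and 6 at 2-fold. The KO effect minus the C61A effect gave at 0 h (1) 2 with quantile normalization or no set term and 0 with mean probe sets, an additive term, without the 3 arrays or with only its groups. At 6 h (0) it gave 8 with an additive term and 21 without one. At 24 h (1) it gave 0 without the filter, when centred and at 2-fold, 2 with mean probe sets or an additive term, 8 without the term and 4 with only its groups. Usp18 siRNA gave at 6 h (1) 0 without the 3 arrays or with only its groups, and at 24 h (11) 6 without the filter, when centred or with loess, 0 with only its groups and 2 at 2-fold. Against control siRNA at 24 h (1) it gave 0 without the filter, when centred, with only its groups and at 2-fold, and 2 with every probe set or without the 3 arrays. BV-2 against WT (36) gave 8 at 2-fold.

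With the culture as a replicate block the counts were 27 (WT 6 h), 8 (WT 24 h), 8 (KO 6 h), 16 (KO 24 h), 15 (C61A 24 h), 1 (KO minus WT response at 24 h), 3 (Usp18 siRNA 6 h) and 28 (24 h). With the replicate number within the run as a block they were 3 (WT 24 h), 2 (KO 24 h), 8 (KO against WT at 0 h), 2 and 26 (Usp18 siRNA at 6 h and 24 h), 13 (Usp18 against control siRNA at 24 h) and 4, 1 and 2 (KO minus C61A effect at 0 h, 6 h and 24 h). With the culture as a block, comparisons between genotypes or between siRNAs at 1 time, and of KO with C61A effects, cannot be estimated. KO against WT at 24 h therefore has no such count. BV-2 against WT was not fitted with a block. Among the comparisons that could be fitted, a block moved no other count of members by over 1.5 times.

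Leaving out 1 array gave 1 to 41 for WT at 6 h, 0 to 2 at 24 h, 0 to 8 for KO at 6 h, 0 to 3 at 24 h and 0 for C61A at 24 h. It gave 0 to 7, 0 to 12 and 3 to 15 for KO against WT at 0 h, 6 h and 24 h, and 0 to 8 for KO minus WT response at 6 h. It gave 0 to 1 and 0 to 28 for Usp18 siRNA at 6 h and 24 h, and 0 to 1 and 0 to 22 against control siRNA. It gave 24 to 34 for BV-2 against WT, and 0 to 5, 0 to 1 and 0 for KO minus C61A effect at 0 h, 6 h and 24 h.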
